A study of Mus musculus with 3 samples.

Results

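Cecr2 and 7 genes of the ISWI chromatin remodelling machinery were examined in mouse thymocytes, the T cell precursors of the thymus. The 8 genes are Cecr2, the ATPase genes Smarca1 and Smarca5, and the partner genes Bptf, Baz1a, Baz1b, Baz2a and Baz2b, out of 19938 genes with a named probe set. They were selected on the level of Cecr2 on the β-catenin transgenic and wild type arrays, where it had the largest gain of any gene, and on gene names, to ask whether that gain was isolated within the family. That level is therefore given as a description only. Each of the 8 has at least 1 probe set annotated to it alone, 9 in all, and 3 further probe sets are shared between Smarca5 and its copies.

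RNA was profiled on 3 Affymetrix whole-transcript arrays, 1 per genotype: wild type mice (12 weeks old), β-catenin transgenic mice (16 weeks) and TCF-1-deficient mice (TCF-1-/-, 8 weeks). TCF-1 is a DNA-binding factor of the Wnt pathway that takes β-catenin as its co-activator, and the study sought genes that depend on the pair. The labels do not give the promoter that drives the transgene, the allele of the TCF-1-deficient mice, their strain or the number of mice behind each array. The labels mention a cell strainer and no sort, so the arrays were read as those of a mixed thymocyte suspension. With 1 array per genotype, no value has an error, no test across samples can be made, and no difference has a replicate check. Genotype and age cannot be told apart.

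ISWI remodellers are ATP-driven motors that slide nucleosomes along DNA and set their spacing. In mammals the motor is SMARCA1 (SNF2L) or SMARCA5 (SNF2H), and the large partner protein decides which complex it works in. BPTF forms NURF, BAZ1A forms ACF and CHRAC, BAZ1B forms WICH, BAZ2A forms NoRC, and CECR2 forms CERF. Most of these partners carry a bromodomain, which binds acetylated histone tails. Cecr2 is best known from mouse embryos, where its loss prevents the neural tube from closing, and from the testis. Bptf is needed for the development of several T cell populations.

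Levels are the deposited values, taken as log2, and each difference is 1 array minus another on that scale. The calls made here use a rule of size, a difference of 1 or more in either direction (2-fold). The median level over genes was 6.90, and the size of a difference is uncertain where a level lies below it. The deposited values hold many repeats: 53.3% of genes are equal between transgenic and wild type, and 33.6% have the same value on all 3. Such a difference of 0 is not a measured equality. Of 14 measured thymocyte markers, 14 exceeded that median with the transgene; without TCF-1, 6 were lower than wild type by 2-fold or more and 1 was higher. Ctnnb1, the β-catenin gene, had levels of 11.15, 11.39 and 11.16 on wild type, transgenic and TCF-1-deficient, and whether its probes read the transgene is not stated. Xist, the RNA that coats the silenced X in female cells, had levels of 12.49 (wild type), 4.86 (transgenic) and 12.17 (TCF-1-deficient). The Y chromosome genes Eif2s3y, Uty and Kdm5d went the other way. They were at 8.43, 8.81 and 7.90 on transgenic, against 3.73, 4.20 and 5.32 on wild type. On TCF-1-deficient they were at 3.84, 4.43 and 5.33. The transgenic array thus has the pattern of male cells, and the wild type and TCF-1-deficient arrays that of female cells. Genotype and sex cannot be told apart in any difference from the transgenic array, and the part of sex in the results was not tested.

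Cecr2 was low on 2 arrays and high on the third. Its level was 6.10 in wild type, 10.94 with the transgene and 5.37 without TCF-1. The transgenic array stood above wild type by 4.85, which is 28.8-fold, and above the TCF-1-deficient array by 5.57, which is 47.5-fold. Ranked from high to low over 19938 genes, the transgenic minus wild type difference of Cecr2 was number 1. The level on wild type lay below the median over genes, so the fold rests on a dim value. With values under 6.90 raised to 6.90, the transgenic array was still 16.5-fold above each of the other arrays.

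The dim value on wild type was itself coarse. Exactly the same value stood at 54 probe sets of the wild type array, whereas the bright value on the transgenic array stood at 2. Wild type and TCF-1-deficient levels of Cecr2 were nearer to each other, with a difference of -0.72 (1.65-fold), under the 2-fold rule. Both of these levels were below the median over genes, so their order is uncertain.

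**Figure D1:**
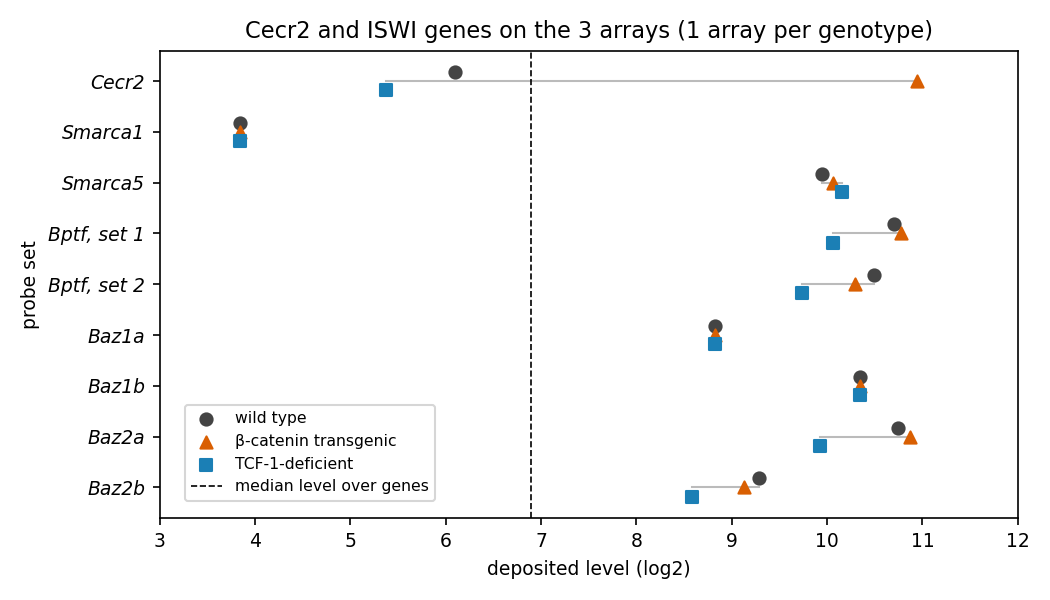
Deposited log2 level (horizontal axis) of each probe set annotated to 1 of the 8 genes (vertical axis, 2 sets for Bptf) on the wild type (circle), β-catenin transgenic (triangle) and TCF-1-deficient (square) array. The dashed line is the median level over genes (6.90). Cecr2 spans 5.37 to 10.94, while no other probe set spans as much as 1 between its 3 arrays.

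No gain of such a size was listed for the other 7 genes, 3 of which are listed at 1 value throughout and so give no measured difference. With the transgene 1 of the 8 genes was past 2-fold upwards, Cecr2 itself, and 0 downwards. The shares over all genes in this comparison were 0.15% higher and 0.0953% lower, and since it chose the genes nothing is read from the count. The other 7 differed from wild type by -0.16 to 0.12, with a median of 0, which is also the median over all genes. Of these 7, 0 passed 1.5-fold. The shares over all genes at that size were 0.487% higher and 0.667% lower, so a count of 0 is near the background and says nothing particular about these genes.

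Of the 2 motor genes, Smarca5 was above the median over genes and Smarca1 was dim. Smarca5, the ATPase of most ISWI complexes in dividing cells, was at 9.95 on wild type, 10.06 on transgenic and 10.16 on TCF-1-deficient. The differences from wild type were 0.11 and 0.21, so the 3 arrays lay close together with wild type lowest. The 3 probe sets that Smarca5 shares with its pseudogene Smarca5-ps and the predicted gene Gm13034 gave smaller differences. Their levels on the 3 arrays in the same order were 10.22, 10.22 and 10.25 for the first, 8.75 on every array for the second, and 10.04, 10.04 and 10.07 for the third. Signal from such copies cannot be assigned to 1 of them.

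Smarca1, the ATPase first found with CECR2 in the CERF complex, was listed at 3.84 on all 3 arrays. That level is far below the median over genes, and the identical value, which 21 probe sets of the wild type array have, carries no information on a change. Smarca1 is X-linked, so the sex-specific difference in Xist touches the same chromosome.

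Without TCF-1, 3 of the partner genes had lower values than in wild type, at sizes below the 2-fold rule. Baz2a, whose product guides NoRC to silent ribosomal RNA genes, was at 10.75 on wild type, 10.87 on transgenic and 9.93 on TCF-1-deficient. The TCF-1-deficient array differed from wild type by -0.82 (1.77-fold), the largest difference from wild type among the 7. Baz2b, the close relative of Baz2a, was at 9.28, 9.12 and 8.59 in the same order. It differed by -0.69 without TCF-1 and by -0.16 with the transgene.

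Bptf, the large NURF subunit that reads histone H3 methylation and acetylation, has 2 probe sets. The brighter was at 10.70 on wild type, 10.78 on transgenic and 10.07 on TCF-1-deficient. The other was at 10.49, 10.29 and 9.74. Both sets were lowest without TCF-1, by -0.63 and -0.75, whereas with the transgene they took opposite signs, 0.07 and -0.20. Both probe sets therefore give the same direction for the TCF-1-deficient array and none for the transgenic array.

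The partners of the ACF and WICH complexes were listed at identical values. Baz1a, which with SMARCA5 spaces nucleosomes in ACF and CHRAC, was listed at 8.83 on every array. Baz1b, the Williams syndrome transcription factor, was listed at 10.35 on every array. Both levels are above the median over genes. Of genes at or above that median, 16.0% have identical values on all 3 arrays, against 51.3% of dimmer genes. Of the 8 genes examined, 3 were identical throughout, namely Smarca1, Baz1a and Baz1b.

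Taking the 8 genes without TCF-1, 0 were past 2-fold above wild type and 0 below it. Over all genes, the shares past 2-fold were 1.33% above and 2.62% below. In genes these are 266 and 523, and centring each array on its median makes them 364 and 405. At 1.5-fold, 4 of the 8 were lower, Cecr2, Baz2a, Baz2b and Bptf, against 6.9% of all genes, and 0 were higher, against 4.04%. The lower count depends on the scaling: with arrays centred on their medians, or with quantile normalisation, it was 2, Cecr2 and Baz2a. With dim values raised to the median level it was 3, without Cecr2. The median over the 8 was -0.32, but over the 7 without Cecr2 it was 0, which is also the median over all genes. In such bulk samples, fewer cells of a type and less RNA per cell cannot be told apart. On the same array the summed unlogged level of the 14 thymocyte markers was 48235, against 84287 on wild type and 87031 on transgenic. These markers did not move together: 6 were lower than wild type by 2-fold or more, Cd4 the most (-3.74), and 1 was higher, Ptcra (1.79). The part of such shifts in the lower values was not tested.

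Set directly against each other, the 2 altered genotypes differed by 2-fold or more in 1 of the 8 genes, Cecr2, which was higher with the transgene. Over all genes, 2.45% were higher and 1.57% lower. At 1.5-fold the count was 3 of 8 higher, Cecr2, Baz2a and Bptf, against 6.29% of all genes, and 0 lower, against 4.4%. Cecr2 was chosen for its level on the transgenic array, so nothing is read from its place in these counts. Of the 7 without Cecr2, 0 were past 2-fold and 2 were higher at 1.5-fold. Baz2a (0.94), Bptf (0.71) and Baz2b (0.54) were on the higher side, and Smarca5 was at -0.10. This comparison uses the same arrays as the others and adds no separate measurement.

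**Figure D2:**
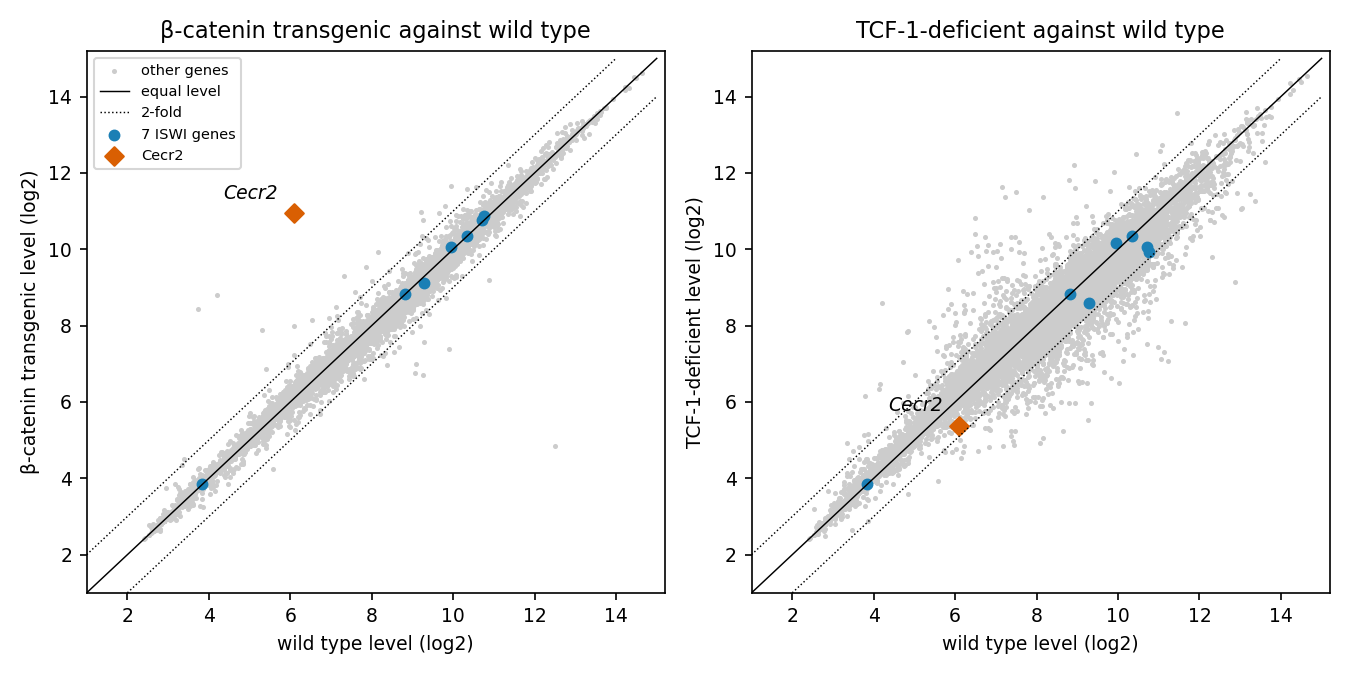
Log2 level of each of 19938 genes (grey points) on the wild type array (horizontal axis) against the transgenic (left) and TCF-1-deficient (right) array, with Cecr2 as a diamond and the 7 ISWI genes as blue points. Solid lines mark equal levels and dotted lines 2-fold; both panels share the wild type array. On the left Cecr2 lies 4.85 above the line of equal levels and the 7 within 0.16 of it.

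The promoters of the 3 partner genes with lower values without TCF-1 are shown because TCF-1 is a DNA-binding factor. Windows reach from 250 bases before to 50 after the start and come from RefSeq on GRCm38.p6, whose table matched 6 of the 8 genes and not Cecr2 or Baz1a. The core of the TCF/LEF motif was searched as CTTTGA and, on the other strand, TCAAAG, and is in capitals.
Baz2b (chr2:60125691-60125990, minus strand): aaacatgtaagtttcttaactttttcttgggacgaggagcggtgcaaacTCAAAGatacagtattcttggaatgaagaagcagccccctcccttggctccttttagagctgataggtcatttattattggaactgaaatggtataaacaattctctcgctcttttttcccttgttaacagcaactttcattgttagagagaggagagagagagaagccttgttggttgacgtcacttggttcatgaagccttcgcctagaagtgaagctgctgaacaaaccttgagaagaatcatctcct
Baz2a (chr10:128092533-128092832, plus strand): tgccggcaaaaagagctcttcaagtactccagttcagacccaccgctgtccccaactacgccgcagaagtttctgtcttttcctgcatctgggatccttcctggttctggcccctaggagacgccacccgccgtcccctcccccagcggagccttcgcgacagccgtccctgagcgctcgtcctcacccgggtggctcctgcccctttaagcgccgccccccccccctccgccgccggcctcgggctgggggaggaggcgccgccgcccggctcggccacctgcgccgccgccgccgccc
Bptf (chr11:107132098-107132397, minus strand): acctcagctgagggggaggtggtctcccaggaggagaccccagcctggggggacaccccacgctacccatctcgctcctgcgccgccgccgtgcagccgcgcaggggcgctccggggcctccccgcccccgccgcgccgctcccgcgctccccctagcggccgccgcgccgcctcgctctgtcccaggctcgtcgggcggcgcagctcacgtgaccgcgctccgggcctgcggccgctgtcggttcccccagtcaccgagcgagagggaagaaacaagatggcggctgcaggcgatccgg

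The window of Baz2b holds the 6 letters once, on the strand opposite to the gene, and the windows of Baz2a and Bptf hold no match. Of all 32851 windows of this length in the table, 16.0% hold CTTTGA or TCAAAG. Of the 6 matched genes 1 does, which is near that share, so nothing is read from the match. The 7-letter form, CTTTGAT or ATCAAAG, which contains the 6-letter form, is in 3.73% of all windows and in 0 of the 6 matched genes. Base composition also differed. The window of Bptf is 76.3% G plus C with 39 CG dinucleotides and that of Baz2a 71% with 30, whereas that of Baz2b is 41.7% with 5. The median over all windows is 52.7% and 7.

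The smaller subunits and associates of ISWI complexes were taken from a list of 14 genes, of which 13 were measured. With the transgene, 0 of the 13 differed from wild type by 1.5-fold, against 0.487% of all genes higher and 0.667% lower. That count is near the background, so nothing is read from it. The values ran from -0.28 (Mybbp1a) to 0.17 (Chrac1). Rsf1, the partner of SMARCA5 in RSF, was at 8.70 on wild type and transgenic and 8.60 on TCF-1-deficient. Chrac1 and Pole3, the histone-fold pair of CHRAC, differed from wild type by 0.17 and -0.02 with the transgene and by 0.02 and 0.33 without TCF-1. Luzp1, reported as a CERF component, was at 6.46, 6.46 and 6.28, under the median level over genes.

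The histone-binding subunits of NURF, Rbbp4 and Rbbp7, differed by -0.01 and -0.05 with the transgene and by 0.08 and 0.45 without TCF-1. Hmgxb4, also found with NURF, was listed at 8.54 on every array. Of the genes of the ribosomal RNA-linked form of WICH, Myo1c passed 2-fold without TCF-1. Myo1c, nuclear myosin, was at 8.86 on wild type, 8.66 on transgenic and 7.57 on TCF-1-deficient, a difference of -1.29 from wild type on the last (2.45-fold). Mybbp1a, a nucleolar protein, was at 9.24, 8.96 and 10.12, a difference of 0.88 without TCF-1, and Ddx21, an RNA helicase, differed by 0.40. Dek, Ercc6 and Sf3b1 differed by -0.01, -0.14 and -0.14. Of the 13, Myo1c was the 1 past 2-fold downwards without TCF-1, and 0 were past it upwards. Over all genes, 2.62% were lower and 1.33% higher in this comparison, so nothing is read from these counts.

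The other remodeller families were then listed. In 5 further lists, for SWI/SNF, CHD and NuRD, INO80 with SRCAP and TIP60, other SNF2-family ATPases and other bromodomain genes, together with the ISWI partners, 127 genes were measured besides the 8. With the transgene 0 of the 127 were past 2-fold above wild type and 0 below it, with a median of 0. The values farthest from 0 were those of Hells, a remodeller linked to DNA methylation (-0.63), Chd3, a NuRD ATPase (-0.59), Mbd2, which binds methylated DNA (0.51), and Smarca2, a SWI/SNF ATPase (0.50). The last is itself a bromodomain gene, and of the 30 measured bromodomain genes outside the 8 it had the highest value. With 0.15% of all genes higher and 0.0953% lower in this comparison, the count of 0 does not set the remodellers apart from other genes.

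Without TCF-1 the same 127 genes differed more. There 5 were below wild type by 2-fold or more (3.94%, against 2.62% of all genes) and 1 was above it (0.787%, against 1.33%), with a median of -0.09. The 127 are brighter than genes at large, so these shares are not set against like genes. With genes under the median level on every array left out, 5 of 119 were lower, against 502 of 10343 genes. At 2-fold the lower share of the remodellers was then not above that of the other genes. At 1.5-fold the shares with dim genes left out were not compared. In the same setting 1 of 119 was higher, against 242 of 10343. The lowest was Arid1b, a DNA-binding SWI/SNF subunit, at 10.74 on wild type, 10.86 on transgenic and 8.38 on TCF-1-deficient, a difference of -2.36. Chd3 was at 9.18, 8.58 and 7.27, and so was lower than wild type on both arrays, by -0.59 and -1.91. Brwd3 (-1.31) and Trim24 (-1.12), both bromodomain genes, and Myo1c were the others. Bcl7a, a SWI/SNF subunit, was the 1 higher gene, at 9.63, 9.62 and 10.70. Between the 2 altered genotypes, 9 of the 127 were higher with the transgene (7.09%, against 2.45% of all genes) and 2 lower (1.57%, against 1.57%). With the same dim genes left out, 9 of 119 were higher, against 482 of 10343, and 2 lower, against 294. The 9 were Arid1b (2.48), Chd3, Smarca2, Brwd3, Ep300, Trim24, Myo1c, Mbd2 and Bicral (1.02), and the 2 were Mybbp1a (-1.16) and Bcl7a (-1.08).

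By family, 1 of 28 SWI/SNF genes was lower and 1 higher without TCF-1, and 1 of 22 CHD and NuRD genes was lower. Over all genes, 2.62% were lower and 1.33% higher by 2-fold in this comparison. None of 29 INO80, SRCAP and TIP60 genes passed 2-fold, and Ruvbl1, a helicase of these complexes (0.76), and Ino80d (-0.67) had the largest differences. None of 14 other SNF2-family ATPases passed it, with Hltf (-0.55) the farthest from 0. Of 30 bromodomain genes 2 were lower, and their median of -0.23 was the lowest of the 6 lists. The median over all genes was 0, or 0.13 with arrays centred and 0.16 with quantile normalisation. The bromodomain list was not set against genes of like level, so nothing is read from its count or median. Ep300, the acetyltransferase that is also a β-catenin co-activator, was in that list at 11.29, 11.44 and 10.31.

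**Figure D3:**
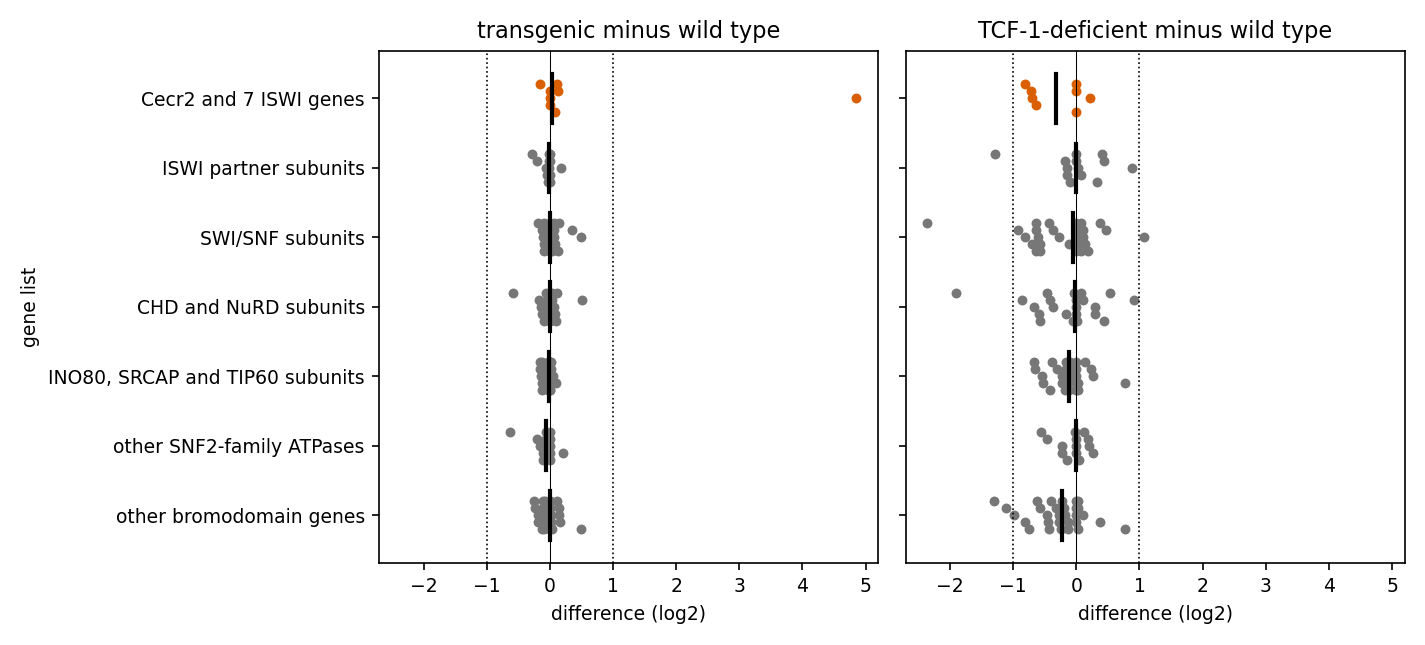
Differences in log2 level (horizontal axis) of single genes (points) in each list (vertical axis), transgenic minus wild type on the left and TCF-1-deficient minus wild type on the right, with list medians as thick bars and 2-fold as dotted lines; some genes are in 2 lists. On the left the one point past 2-fold is Cecr2 at 4.85. On the right the lowest is Arid1b at -2.36.

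The genes beside Cecr2 on its chromosome were listed beside it. Among the 5 nearest measured genes on each side, 0 of 10 differed between transgenic and wild type by 2-fold, and the median was 0. Over all genes 0.15% were higher and 0.0953% lower, so this count is near the background. Hdhd5, next to Cecr2 on one side, was at 9.46 on wild type, 9.30 on transgenic and 9.20 on TCF-1-deficient. Slc25a18, a mitochondrial carrier gene next to it on the other side, was at 6.86, 7.01 and 6.89. Both direct neighbours differed from wild type by less than 0.2 with the transgene.

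Atp6v1e1, the second gene on that side, encodes a subunit of the proton pump that acidifies lysosomes and differed from the rest. It was at 9.13 on wild type, 9.93 on transgenic and 8.52 on TCF-1-deficient. The transgenic array was higher than wild type by 0.79 (1.73-fold), a size that 52 of 19938 genes (0.261%) reached in that direction. Without TCF-1 it differed from wild type by -0.61. Its order over the arrays, transgenic highest and TCF-1-deficient lowest, was that listed for Cecr2, whose 2 lower levels are dim. The difference between transgenic and wild type passes 1.5-fold and not 2-fold. Atp6v1e1 was higher on transgenic than on TCF-1-deficient by 1.41 (2.65-fold), a size that 228 genes (1.14%) reached in that direction. Of the 10 neighbours, 1 was past 2-fold upwards in that comparison and 0 downwards, against 2.45% and 1.57% of all genes. Of the remaining neighbours, Il17ra, a receptor of interleukin-17, differed from wild type by -0.20 with the transgene and -0.90 without TCF-1. In the same order, Kdm5a, a histone demethylase, differed by -0.16 and -0.46, Bcl2l13 by 0.07 and -0.05, Tmem121b by 0.02 and 0.18, and Bid, a pro-apoptotic gene, by 0 and 0.30. Mical3 (0 and 0.07) and Ccdc77 (0 on both) completed the 10.

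**Figure D4:**
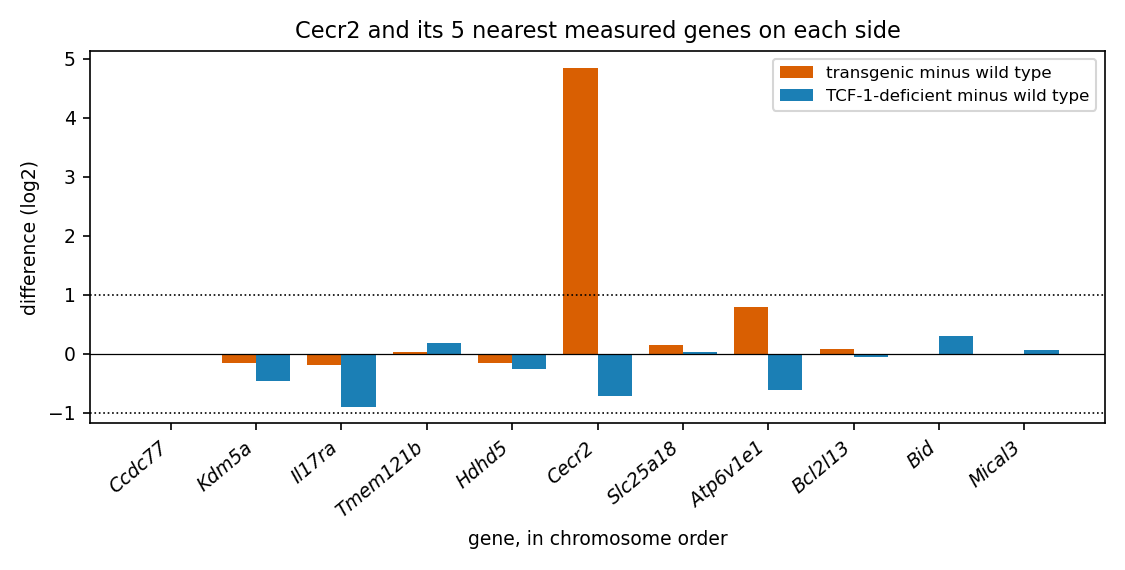
Difference in log2 level (vertical axis) from wild type on the transgenic (orange bars) and TCF-1-deficient (blue bars) array for Cecr2 and the 5 nearest measured genes on each side, in chromosome order and not to distance. Dotted lines mark 2-fold. Cecr2 reaches 4.85, and the next highest orange bar is Atp6v1e1 at 0.79.

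The genes most like Cecr2 over the 3 arrays were found by the distance between their pairs of differences from wild type, in log2 units. The nearest were Eif2s3y (distance 0.85), Uty (0.99) and Kdm5d (2.38), all of the Y chromosome, then Igkv10-96, an immunoglobulin segment (3.07), and Esrp2, a splicing regulator (3.10). Eif2s3y was at 3.73 on wild type, 8.43 on transgenic and 3.84 on TCF-1-deficient, and Uty at 4.20, 8.81 and 4.43. The autosomal genes came no nearer than 3.07. Igkv10-96 has close relatives that can share its signal. A pattern over 3 arrays describes these arrays only, and in this one genotype and sex cannot be told apart.

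Markers of the tissues in which Cecr2 is best known were dim. Of 10 neural markers, 9 stayed under the median over genes on every array, and of 10 testis germ cell markers, 9 were. From wild type to transgenic, 0 of the 20 differed by 1.5-fold, against 0.487% of all genes higher and 0.667% lower. That count is near the background, so nothing is read from it. The summed unlogged levels on transgenic and wild type were 603 and 594 for the neural list and 479 and 475 for the germ cell list. On TCF-1-deficient these sums were 674 and 478. Markers of other cells in a thymus were summed in the same way. The sum over 9 B lymphocyte markers was 1811 with the transgene, 1524 in wild type and 3121 without TCF-1. The sum over 12 myeloid markers was 1714, 1433 and 4777 in that order, and over 10 stromal and endothelial markers 1691, 1788 and 4618. Single genes carry much of some of these sums. Without Pdgfrb the stromal sum was 1574, 1646 and 1470, and without Ly86 the myeloid sum was 1451, 1254 and 1886. Without Cd79a the B lymphocyte sum was 1562, 1397 and 2385, still highest without TCF-1. The sums were 13786, 13313 and 9167 for 11 dendritic cell markers, 1452, 1592 and 1208 for 10 thymic epithelial markers, and 577, 396 and 611 for 4 of 7 erythroid markers. Without Ccr9, which immature T cells also express, the dendritic sum was 4112, 3551 and 6388, and without Cldn4 the epithelial sum was 963, 927 and 962. Without Alas2 the erythroid sum was 273, 255 and 301. The part of these cells in the differences was not tested.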

How the data were processed

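RNA of thymocytes was measured on 3 arrays, 1 per genotype, and the genotype of each was taken from the labels. The deposited log2 values were made by the authors with RMA and Partek, per the submitters' processing notes, with versions, settings and build not given in the sources used here. Log2 as the scale is inferred from RMA and from the range of 1.73 to 14.8. Array number limits the precision.

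Of 35556 probe sets, the platform annotation names 21789 with 1 symbol and 1621 with several, and 12146 are unnamed here. Genes with several probe sets were read from the one with the highest mean. The RefSeq GRCm38.p6 table held the Entrez identifiers of 99.6% of single-symbol sets and gave the order of neighbours.

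Named were the 8 genes, the ISWI partners, members of other lists past 2-fold (otherwise the 2 farthest from wild type), the 5 genes most like Cecr2, and its neighbours. The 8 genes and all lists were chosen with earlier results of these data known. The gene that encodes TCF-1 was not analysed here. Calculations were tested on simulated data. Alternatives were other thresholds, scalings, dim-gene rules and probe set rules; leaving out chromosomes X and Y, and 1.5-fold combined with a scaling or raised dim values, were chosen after seeing the data. The tools were pandas 2.3.3, NumPy 2.4.6 and statsmodels 0.14.6 in Python 3.11.15.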

Additional observations from a re-analysis of the deposited data

How the results depend on the processing

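The transgenic minus wild type difference of Cecr2, which chose the genes, lay between 4.04 (values below the median level raised to it) and 4.93 (arrays centred). Cecr2 has 1 probe set and is autosomal, so the alternatives on probe sets and on chromosomes X and Y could not change it. Its TCF-1-deficient minus wild type difference ran from -0.76 to 0, the last with dim values raised, which sets both arrays to the same level. At 1.5-fold, 4 of the 8 genes were lower on TCF-1-deficient than wild type and 3 higher on transgenic than TCF-1-deficient, Cecr2 among both. Over all genes these shares were 6.9% and 6.29%. The 4 became 2 with centring, 2 with quantile normalisation and 3 with dim values raised, combinations chosen after seeing the data. Centring moves the median over genes by 0.08 for transgenic and 0.13 for TCF-1-deficient minus wild type, and quantile normalisation by 0.08 and 0.16. Baz2a (-0.82 to -0.67), Baz2b (-0.69 to -0.54) and Bptf (-0.69 to -0.49) stayed lower without TCF-1 under every alternative. Only centring, quantile normalisation and removal of a loess trend could move Baz2a and Baz2b, which are autosomal, have 1 probe set and lie above the median level. For Bptf the mean of its probe sets could do so as well. With the mean of its probe sets Bptf differed by -0.06 with the transgene.

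For the 127 other genes, TCF-1-deficient minus wild type gave 5 higher and 20 lower at 1.5-fold, and 0 and 2 at 3-fold. Over all genes the shares at 1.5-fold were 4.04% higher and 6.9% lower, and 107 and 175 of 19938 passed 3-fold. These counts were not set against genes of like level. At 2-fold the higher count was 3 with centring, 3 with quantile normalisation and 2 with the mean of the probe sets. Transgenic minus TCF-1-deficient gave 16 higher and 7 lower at 1.5-fold, and 1 and 0 at 3-fold, against 9 and 2 at 2-fold. Over all genes the shares at 1.5-fold were 6.29% higher and 4.4% lower, and 177 and 118 genes passed 3-fold. Transgenic minus wild type gave 0 higher and 2 lower at 1.5-fold, against 0.487% and 0.667% of all genes. No paired analysis was possible because each genotype has 1 array. Smarca1 has no value where dim genes, or those of chromosomes X and Y, are left out.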
